A study of Drosophila melanogaster with 8 samples.

Results

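Enriched regions of heterochromatin protein 1a (HP1a) on chromosome 4 of Drosophila melanogaster are described here from chromatin immunoprecipitation followed by sequencing (ChIP-seq). The members are all regions that the deposited lists place on chromosome 4, so position alone chose among the listed regions. The lists themselves hold only sequence that the authors called enriched. The members number 102, 87, 118 and 88 in replicates 1 to 4. Together these are 395 of the 19696 regions in the 4 replicate lists. Another list, deposited for the series as a whole and here called the combined set, has 100 of its 5697 regions on chromosome 4.

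Oregon-R, a wild-type strain, supplied all samples as embryos staged 14 to 16 h. The 4 ChIP samples were made with the HP1a antibody wa191, and the 4 input samples are genomic DNA, each labelled as the input for the ChIP of the same number. No mutant, treatment or second stage is part of the study, so the comparisons are between chromosome 4 and other sequence in the same embryos, and among replicates. Whether the replicates are separate collections of embryos is not in the labels, so p-values measure only the spread between these samples, which may be technical. Replicates 1 and 2 have the neighbouring experiment numbers 1914 and 1916. Replicates 3 and 4 have 2026 and 2027.

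HP1a is a small chromatin protein whose chromodomain binds histone H3 methylated at lysine 9 and whose chromoshadow domain pairs it with itself and with other proteins. It is best known from the repeat-rich heterochromatin around centromeres, where loss of HP1a weakens the silencing of genes placed nearby. Chromosome 4, the dot chromosome, is unusual because HP1a and methylated lysine 9 also lie along the arm that carries its genes, many of which are active. The methyltransferase Eggless (SETDB1) and the chromosome-specific protein POF are known to act there. Its genes include cubitus interruptus (ci), the transcription factor of Hedgehog signalling, pangolin (pan), that of Wnt signalling, the eye-forming factors eyeless (ey) and twin of eyeless (toy), and the Polycomb group gene pleiohomeotic (pho). A table of RefSeq genes for release 6 of the genome lists 114 genes on chromosome 4, of which 80 are protein-coding.

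Each list gives the start, end and score of every region on FlyBase release 5, in which chromosome 4 is 1.35 Mb long. The gene table is on release 6, where positions differ, so the genes under each region were not analysed here. Reads behind the regions were not used here and the depth of each sample is unknown. The score is the authors' own value without a stated unit, and it serves here only to rank regions within a list, as a percentile among all regions of that list. A base outside every region may be one where no region could have been detected, such as an assembly gap or a repeat, and this was not tested.

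HP1a regions covered more than 45% of chromosome 4 in every replicate, in pieces of several kilobases. The covered length was 647, 781, 798 and 854 kb in replicates 1 to 4. As a share of the chromosome this was 47.9, 57.8, 59.0 and 63.1%, a mean of 56.9% ± 6.48 (SD, n = 4). Replicate 1 was the lowest and replicate 4 the highest, and replicates 2 and 3 lay close together. The combined set covered 859 kb, or 63.5%, slightly more than the highest replicate.

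The number of regions did not follow the covered length. Replicate 3 had the most regions, 118, and replicate 2 the fewest, 87, although their covered shares differed by little. Median widths were 4130, 6277, 3788 and 5256 bp in replicates 1 to 4 (mean 4863 ± 1133 bp, SD, n = 4), larger in replicates 2 and 4 than in replicates 1 and 3. The narrowest region of each list was between 1306 and 1359 bp. The widest was 23292 bp in replicate 1, 48311 bp in replicate 2, 34917 bp in replicate 3 and 60318 bp in replicate 4.

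Most of the covered sequence lay in wide regions. Regions of 10 kb or more numbered 24, 30, 30 and 32 in replicates 1 to 4, and they held 53.4, 72.1, 59.5 and 78.3% of the covered bases. Regions under 2 kb numbered 23, 15, 28 and 21, and held between 3.09 and 6.10% of those bases. Thus narrow regions were about as many as wide ones in replicates 1 and 3 and fewer in replicates 2 and 4. In every replicate they held little of the covered length.

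**Figure D1:**
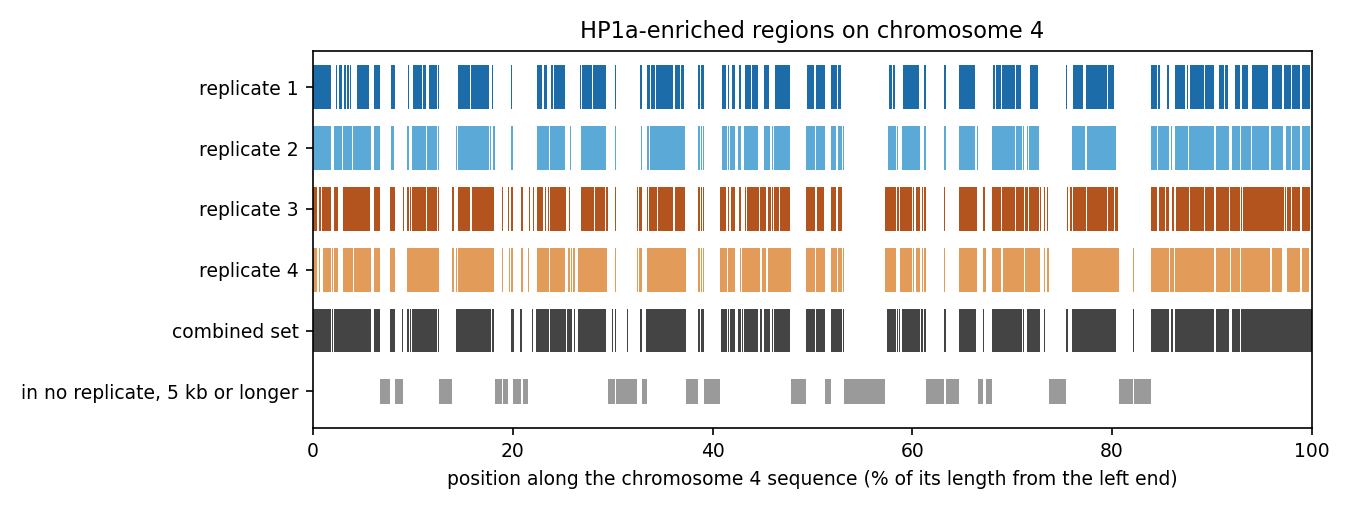
HP1a regions along chromosome 4 in each list (rows) by position (x axis, % of the sequence from its left end); filled bars are regions, and the bottom row marks stretches of at least 5 kb in no replicate. The longest empty stretch, which holds 718646 to 773573, lies in the same place in all 5 lists, and both ends are densely filled.

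The replicates placed HP1a on much the same bases. Of all bases of chromosome 4, 44.1% (596 kb) lay in a region of all 4 replicates and 32.1% (434 kb) in a region of none. Bases in 1, 2 or 3 replicates made up 5.76, 8.44 and 9.58%. Of the 67.9% of bases in at least 1 replicate, 65.0% were in all 4. The same share was 64.8% in the 2 Mb of arm 3L next to its centromere, 67.3% in the 3L heterochromatin scaffold (3LHet) and 37.7% in the 5 large arms outside such 2 Mb windows.

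The disagreement ran mostly one way, with the regions of replicate 1 lying inside those of the others. Replicates 2, 3 and 4 held 98.2, 93.5 and 96.3% of the bases of replicate 1. In the other direction, replicate 1 held 81.4, 75.9 and 73.0% of the bases of replicates 2, 3 and 4. Only 1.88 kb was covered in replicate 1 alone, against 42.0 kb in replicate 4 alone and 25.1 kb in replicate 3 alone.

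Bases missing from replicate 1 alone, present in the other 3 replicates, came to 103 kb or 7.64% of the chromosome. Bases shared by replicates 3 and 4 and by no other came to 58.1 kb (4.30%), whereas those shared by replicates 1 and 2 and by no other came to 17.5 kb (1.30%). The Jaccard index, the bases shared by a pair of replicates over the bases in either, was highest for replicates 3 and 4 (0.857) and next for replicates 2 and 4 (0.840). It was 0.802 for replicates 1 and 2 and lowest for replicates 1 and 4 (0.710). Replicates 1 and 2 and replicates 3 and 4 have neighbouring experiment numbers, and whether that bears on the overlap was not tested.

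The combined set comes from the same series and is not independent of the replicates, so its overlap with them is no separate support. Of its 100 regions on chromosome 4, 60 (95% Wilson interval 50.2 to 69.1%, counting error only) met a region of every replicate (1 bp or more shared), where 47.1% of the whole combined list did. A further 8 were overlapped in 3 replicates, 15 in 2 and 10 in 1. The remaining 7 (Wilson interval 3.43 to 13.7%) were overlapped in none, against 13.0% of the whole list. A part with more of its bases covered also overlaps more readily, and no comparison with chance placement was made. The share found in all 4 was 63.1% of 130 regions in the 3L window, 73.2% of 142 regions in 3LHet and 40.7% of 3635 regions in the arms.

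The regions shared by all 4 replicates were wide and high-scoring. They had a median width of 11022.5 bp and a median score of 1.47, and covered 794364 bp. Regions found in 3, 2, 1 or no replicates had median widths of 2002.5, 1501, 1392 and 1418 bp and median scores between 0.513 and 0.612. By score and width, then, regions in 3 replicates resembled those in none more than those in all 4. Wide regions are overlapped more easily than narrow ones, so width and sharing cannot be told apart here.

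Where a combined region was missing from some replicates, the missing ones included replicate 1 in all but 1 region, which was found in replicates 1 and 3. The pattern of replicates 3 and 4 only was seen in 10 regions, that of replicates 2, 3 and 4 in 8 and that of replicate 4 only in 6. Replicate 3 alone and the pair of replicates 2 and 4 accounted for 3 regions each. No region was found in replicates 1 and 2 only, and none in replicate 1 only. Counted by replicate, 61, 73, 83 and 87 of the 100 regions were overlapped in replicates 1 to 4, and 22, 55, 55 and 71 were covered over at least 90% of their length. The same counts were not made over the whole combined list. Over all sequence replicate 1 listed the most regions, 5406, against 5127, 4903 and 4260 in replicates 2, 3 and 4.

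Replicate 1 also covered shared regions less fully. Among the 60 regions overlapped in all 4 replicates, it had the lowest covered share in 39, while replicates 2, 3 and 4 had it in 3, 10 and 8. Combined regions were split into separate pieces most often in replicates 3 and 1, with 26 and 25 regions in at least 2 pieces, against 11 in replicate 4 and 13 in replicate 2. Neither count was made over the whole combined list, and replicate 1 also had the lowest cover of the whole chromosome.

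**Figure D2:**
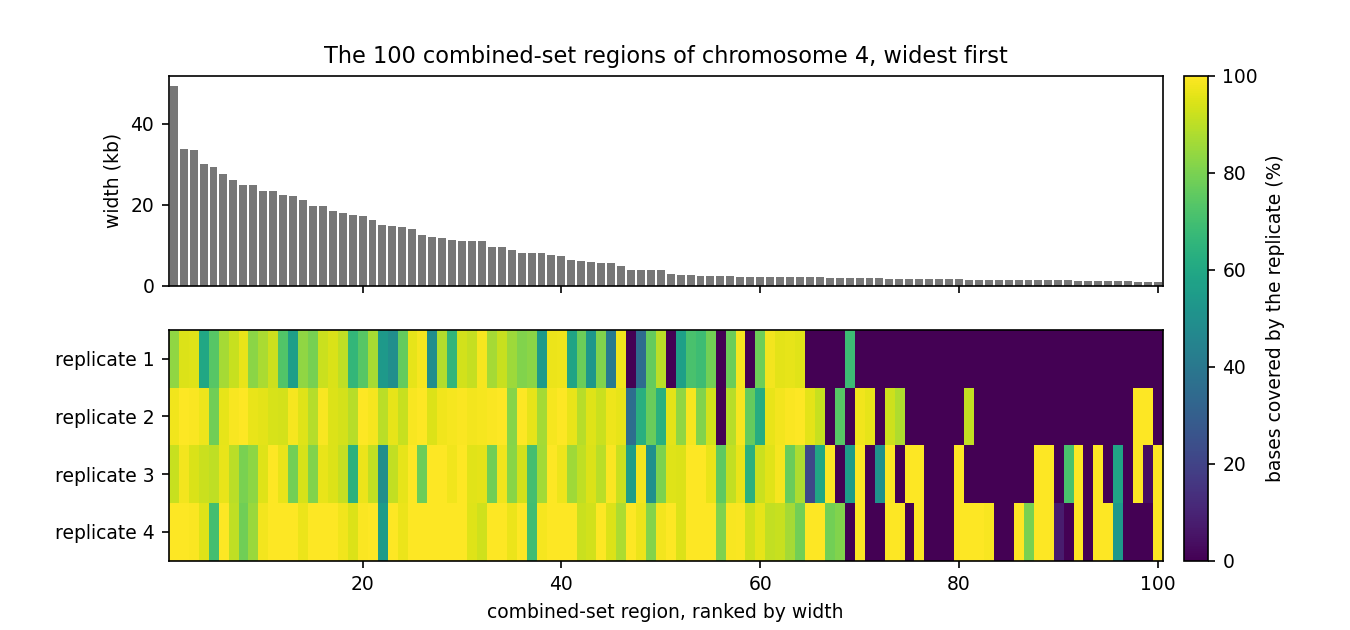
Share of each combined-set region's length (%) that lay in regions of each replicate, as colour, with the 100 combined regions of chromosome 4 ranked from widest to narrowest and their widths (kb) as bars above. Wide regions hold bases of all 4 replicates, replicate 1 least fully, and the 7 regions empty in all 4 are among the narrow ones.

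Seen from the replicate lists, 317 of the 395 regions (80.3%) were overlapped in all 3 other replicates, 21 in 2, 46 in 1 and 11 in none. By replicate, 99 of 102 regions of replicate 1 (97.1%) met regions of all 3 others, against 68.9% over its whole list. For replicate 2 it was 70 of 87 (80.5%), against 59.8%. For replicate 3 it was 87 of 118 (73.7%), close to the 70.8% of its whole list, and for replicate 4 it was 61 of 88 (69.3%), below its 78.9%. The 11 regions seen in a single replicate were 1 in replicate 2, 6 in replicate 3 and 4 in replicate 4. They were narrow, 1359 to 2645 bp, and scored low, at percentiles 0.322 to 28.0. Such regions made up 0, 1.15, 5.08 and 4.55% of the chromosome 4 regions of replicates 1 to 4. Over the whole lists the shares were 3.59, 9.23, 5.00 and 3.31%, so replicates 3 and 4 were not below theirs. None of the chromosome 4 regions of replicates 1 and 2 lay outside the combined set, while 8 of 118 in replicate 3 and 9 of 88 in replicate 4 did. The same share over the whole lists was not computed, so this cannot be called particular to chromosome 4.

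HP1a cover was uneven along the chromosome. In windows of 100 kb the highest mean covered share was 85.1% ± 11.2 (SD, n = 4) from 1200001 to 1300000, with 68.5, 88.3, 90.4 and 93.0% in replicates 1 to 4. The last, shorter window, from 1300001 to 1351857, had 78.8, 79.2, 84.1 and 75.9% (mean 79.5% ± 3.38). Next came the window from 300001 to 400000, with 62.0, 72.0, 69.2 and 83.4% (mean 71.6% ± 8.88). High cover therefore occurred at the right end and also inside the chromosome.

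The lowest window ran from 700001 to 800000, with 19.0, 29.9, 34.5 and 37.4% in replicates 1 to 4 (mean 30.2% ± 8.09, SD, n = 4), and 60.0% of it lay in no region of any replicate. Next lowest were 500001 to 600000, with 35.5, 46.7, 42.4 and 51.9% (mean 44.1% ± 6.91), and 800001 to 900000, with 45.1, 48.4, 47.7 and 48.0% (mean 47.3% ± 1.51). In the lowest window every replicate was below its own value in all other windows. The window from 800001 to 900000 had the smallest spread between replicates among the 6 windows named here.

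**Figure D3:**
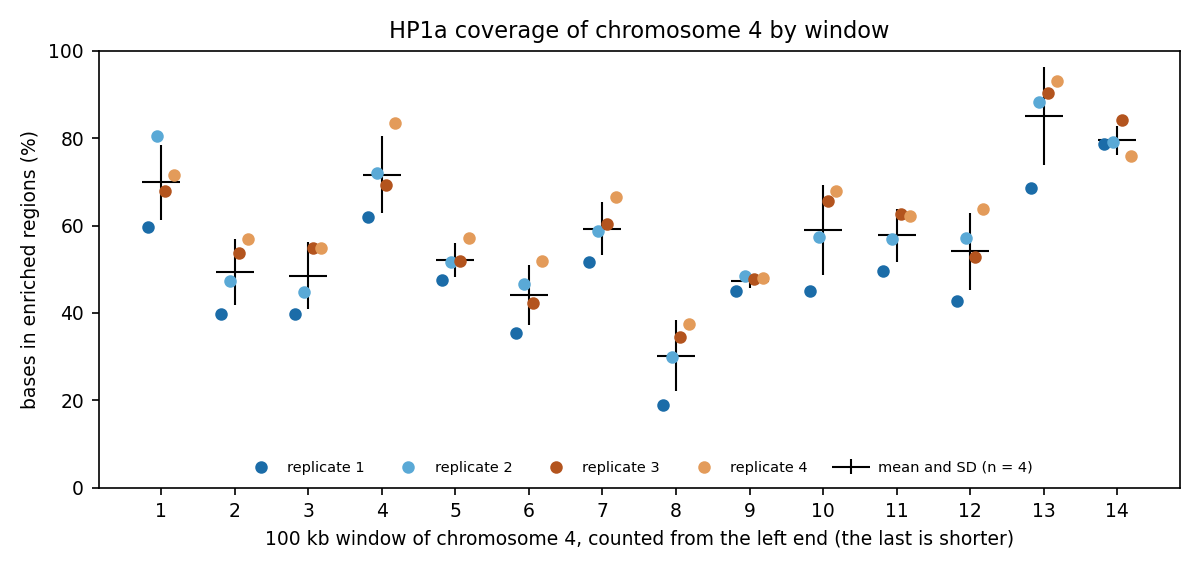
Share of bases in HP1a regions (%) in consecutive 100 kb windows of chromosome 4, numbered from the left end; points are replicates, and the mean and SD over 4 replicates are drawn. The window from 700001 to 800000 (number 8) is lowest at 30.2%, and that from 1200001 to 1300000 (number 13) is highest at 85.1%.

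At a finer scale, of 136 bins of 10 kb, 24 were covered over at least 90% in every replicate and 17 had no cover in any. In no bin was 1 replicate covered over at least 90% while another had none. Replicates 3 and 4 were both above replicates 1 and 2 in 47 bins, and both below them in 10.

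The ends of chromosome 4 were covered more than its interior. The outer 100 kb on each side together had 66.5, 82.5, 78.2 and 77.9% of their bases in regions in replicates 1 to 4, against 44.6, 53.5, 55.7 and 60.6% for the sequence between them. The groups did not overlap, and the ends were higher in 4 of 4 replicates, by 1.43 ± 0.113 times (SD, n = 4). An exact two-sided sign-flip test over 4 replicates gave p = 0.125, the smallest it allows, and 0.25 after Benjamini-Hochberg adjustment over the 10 comparisons made, so no comparison of this design can pass 0.05. The left end, on the centromere side, averaged 69.9% ± 8.58 and the right end, on the telomere side, 82.7% ± 6.48 (SD, n = 4 each).

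Cover differed little between the sides of the chromosome. The left 50% of the sequence was covered over 56.2% ± 6.43 and the right 50% over 57.7% ± 6.61 (SD, n = 4 each). The left was lower in 4 of 4 replicates, by 0.04 ± 0.04 on the log2 scale (exact sign-flip p = 0.125, adjusted 0.25). Without the outer 100 kb at each end, a choice made after seeing the data, the left side was covered over 53.8% ± 6.67 and the right side over 53.3% ± 6.76 (SD, n = 4 each). The left was then higher in 2 of 4 replicates, and the mean log2 ratio turned to 0.015.

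Both extreme ends carried the highest-scoring regions. Among the combined regions of chromosome 4 the highest score, 2.36, belonged to that from 1325543 to 1336533, followed by 2.28 from 1338497 to 1349441 and 2.18 from 9 to 24923. All 3 lie within 30 kb of an end. The leftmost one was covered over 96.8, 99.8, 79.8 and 78.4% in replicates 1 to 4. It was a single region in replicate 2, 2 pieces in replicate 1 and 3 pieces in replicates 3 and 4.

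In replicates 3 and 4 the middle piece of that left end scored highest on the chromosome. It ran from 7905 to 10055 in replicate 3 (score 3.00) and from 8051 to 10035 in replicate 4 (score 2.67). In replicate 2 the top region was at the right end, from 1325685 to 1336497 (score 2.51). Replicate 1 had its top region at the right end too, from 1314225 to 1316391 (score 2.85, percentile 99.2), yet this 2167 bp region was overlapped in only 1 other replicate. The strongest region of the chromosome thus differed in place between lists but lay in the outer 100 kb in all 4.

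High scores also occurred inside. The combined regions from 156749 to 167802 and from 521248 to 523435 both scored 2.02. The second is only 2 kb wide, and its replicate regions scored 2.03, 1.98, 1.35 and 1.24 in replicates 1 to 4. Replicates 1 and 2 were thus higher than replicates 3 and 4, though scores of different lists have no shared unit.

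The widest HP1a domain of the combined set on chromosome 4 ran from 454932 to 504329 (49398 bp, score 1.63). Replicates 1 to 4 covered 83.5, 97.8, 91.7 and 100% of it, in 7, 1, 3 and 1 pieces. Its extent was shared by all 4, while the number of pieces differed. The domains from 1050657 to 1084314 and from 1186350 to 1219941 were covered over at least 94.5% in every replicate, and were again 1 piece in replicates 2 and 4 and several in replicates 1 and 3. The domain from 1295976 to 1325342 was covered less, over 74.0, 78.5, 90.5 and 70.0%. The widest region of replicate 2, from 455775 to 504085, lay in the domain that starts at 454932. The widest region of replicate 1 ran from 1050839 to 1074130, that of replicate 3 from 1279722 to 1314638, and that of replicate 4 from 1027830 to 1088147, the last spanning 3 combined regions.

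Some domains varied strongly between replicates, and replicate 1 was the low one in the 5 regions of at least 5 kb with the largest range. From 28028 to 33555 the covered share was 41.3, 97.4, 99.4 and 94.8% in replicates 1 to 4. From 777238 to 789300 it was 48.9, 94.6, 100 and 100%. The 3 others, starting at 1255600, 552337 and 1133915, had 49.3, 54.5 and 56.1% in replicate 1 and between 78.8 and 100% in the others.

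Stretches lying inside regions of all 4 replicates numbered 43 at a length of at least 5 kb, 452 kb in all or 33.4% of the chromosome. The longest ran from 874667 to 896189 (21523 bp). Next were 467408 to 486646 (19239 bp), 1186970 to 1206085 (19116 bp), 1057045 to 1074130 (17086 bp) and 933335 to 950246 (16912 bp). None of these 5 lies in the outer 100 kb, so the longest shared domains were interior while the highest scores were at the ends.

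Stretches of at least 5 kb without a region in any replicate numbered 22 and came to 360 kb, which is 26.7% of the chromosome and 83.0% of the bases in no replicate. The longest, from 718646 to 773573 (54928 bp), also holds no combined region. It was bounded closely in all lists, since the longest gap was 64854, 59419, 58665 and 54928 bp in replicates 1 to 4 and its left edge lay between 715117 and 718646. On its right the first region began at 779971, 777887, 774809 and 773574 in replicates 1 to 4. The longest interval without a listed region was thus in the same place in every replicate and differed by at most 10 kb in length.

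The next gaps were less than 30 kb long. They ran from 410633 to 438089 (27457 bp), 829482 to 854062 (24581 bp), 995706 to 1019765 (24060 bp) and 1111576 to 1133868 (22293 bp). The 3 after these, starting at 529657, 647601 and 1090543, measured 20545, 19759 and 19674 bp. In the gap from 410633, combined regions covered 4.32% of the bases, and in that from 1090543 they covered 1.37%. Stretches in no replicate were thus spread over the interior, with none of the 8 longest in the outer 100 kb.

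The 7 combined regions found in no replicate were short. They run from 792970 to 794598, 1336585 to 1338195, 1349997 to 1351539, 279734 to 281151, 404940 to 406346, 424849 to 426033 and 343461 to 344508. Among them 1336585 to 1338195 had a score of 1.66, at percentile 87.5 of the whole combined list, and 1349997 to 1351539 one of 1.63. The first of these lies between the 2 highest-scoring combined regions of chromosome 4, and the second is its rightmost combined region.

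Chromosome 4 was then set beside 3 other parts of the genome. Its covered share of 56.9% compared with 5.39% ± 1.09 (SD, n = 4) in the 5 large arms outside the 2 Mb next to their centromeres. The ratio was 11.0 ± 3.38, or 3.42 ± 0.42 on the log2 scale, and higher in 4 of 4 replicates (exact sign-flip p = 0.125, adjusted 0.25). In cover, chromosome 4 was therefore far from the arms, and nearer to the pericentric parts given next.

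Against the 2 Mb of 3L next to the centromere, chromosome 4 was covered less, by an amount that depended on the window. The 2 Mb had 55.9, 64.5, 61.1 and 64.5% in replicates 1 to 4, and the ratio of chromosome 4 to it was 0.857, 0.895, 0.965 and 0.979. All 4 ratios were below 1, with a mean log2 ratio of -0.12 ± 0.09 (exact sign-flip p = 0.125, adjusted 0.25). Against the 1 Mb nearest the centromere the mean log2 ratio was -0.44, again below 0 in 4 of 4. Against 3LHet, with 68.6, 79.5, 73.9 and 76.6%, the ratio was 0.697, 0.726, 0.798 and 0.825, a mean log2 ratio of -0.40 ± 0.11 (exact sign-flip p = 0.125, adjusted 0.25). However, 3LHet was chosen as the scaffold part with the highest covered share. A ratio below 1 was therefore likely beforehand, and its p-value cannot count as support. The direction was the same in 4 of 4 replicates in both comparisons.

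Median region width did not separate chromosome 4 from these parts. Widths of 4130, 6277, 3788 and 5256 bp on chromosome 4 compared with 4016, 5421, 5199 and 7291 bp in the 3L window, lower in 2 of 4 replicates (log2 ratio -0.17, exact sign-flip p = 0.5, adjusted 0.5). That ratio was -0.53 against a window of 1 Mb. It came to -0.30 without replicate 2, -0.073 without replicate 3 and -0.068 without replicate 4. In 3LHet they were 4137, 6271, 5794 and 6055 bp, and chromosome 4 was lower in 3 of 4 (log2 ratio -0.20, exact sign-flip p = 0.25, adjusted 0.417), which came to -0.068 without replicate 3. The mean gap between regions on chromosome 4 was longer than in the 3L window by 0.11 on the log2 scale, in 2 of 4 replicates (exact sign-flip p = 0.5, adjusted 0.5). This depended on the window, since against 1 Mb it was longer by 1.13 in 4 of 4 replicates. Against 2 Mb it came to 0.023 without replicate 1, 0.071 without replicate 2 and 0.19 without replicate 3.

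Scores gave no common direction either. The median percentile of chromosome 4 regions was 58.0, 52.8, 49.9 and 49.8 in replicates 1 to 4, near the middle of each list. It differed from the 3L window by 10.0, -5.33, -13.5 and -14.5 percentile points, and from 3LHet by 7.68, -3.32, -19.3 and -18.9 (both exact sign-flip p = 0.375, adjusted 0.469). Replicate 1 was positive and the 3 others negative in both. The mean difference from the 3L window, -5.83, became -11.1 without replicate 1, -3.27 without replicate 3 and -2.94 without replicate 4. For 3LHet the mean of -8.46 became -13.8, -4.84 and -4.99 without the same replicates. Above the 75th percentile lay 34, 35, 24 and 30 regions of chromosome 4, or 33.3, 40.2, 20.3 and 34.1% of its regions. By definition 75% of each whole list lies below that percentile. The same share was 16.3, 21.9, 31.2 and 30.9% in the 3L window and 19.6, 22.0, 39.3 and 39.8% in 3LHet. Chromosome 4 was thus above both in replicates 1 and 2, but below both in replicate 3 and below 3LHet in replicate 4.

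**Figure D4:**
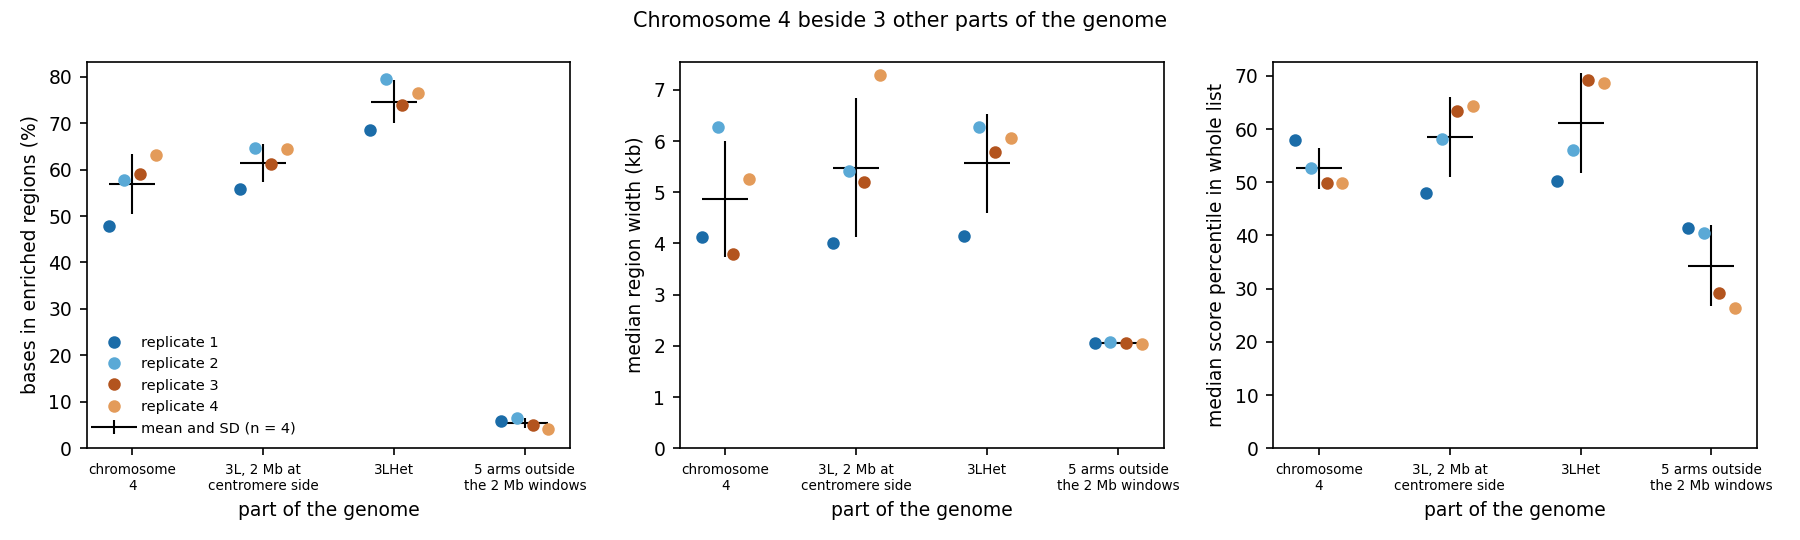
Covered share (%), median region width (kb) and median score percentile in chromosome 4, the 2 Mb of 3L at the centromere side, 3LHet and the 5 large arms outside such windows; points are replicates, lines the mean and SD (n = 4). By its mean, chromosome 4 lies nearer to the pericentric parts than to the arms in all 3 panels. Its mean covered share is 56.9%, against 5.39% in the arms and 74.6% in 3LHet, below which it lies in every replicate. For its high covered share 3LHet was chosen.

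Score followed width closely on chromosome 4. Spearman's rho between them was 0.737, 0.813, 0.825 and 0.799 over the regions of replicates 1 to 4. In the 3L window it was 0.716, 0.731, 0.632 and 0.492, in 3LHet 0.618, 0.778, 0.540 and 0.290, and in the arms 0.669, 0.702, 0.756 and 0.738. Regions of 1 list share a library and adjoin each other, so these are descriptions. They were highest on chromosome 4 in 4 of 4 replicates.

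**Figure D5:**
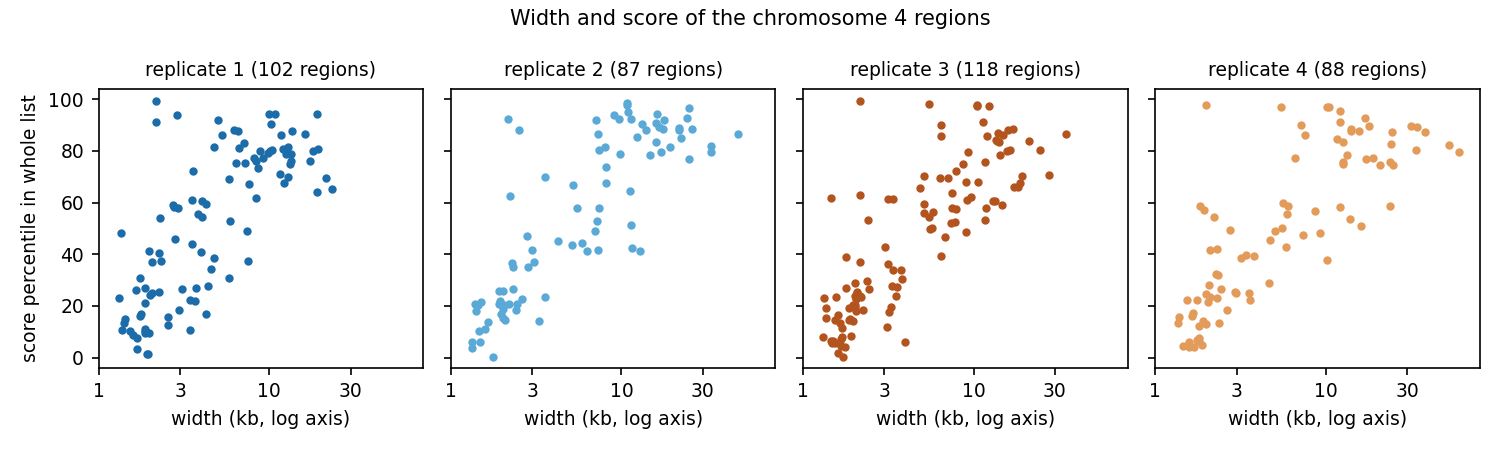
Width (kb, log axis) and score percentile in the whole list of each HP1a region on chromosome 4, a panel per replicate. Wide regions sit high in every panel, with Spearman's rho between 0.737 and 0.825.

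The order of regions by score was also much alike between replicates. Over the 60 combined regions overlapped in all 4, Spearman's rho between the highest scores found in a pair of replicates was 0.904 for replicates 1 and 2 and 0.900 for replicates 3 and 4. Across these pairs it was between 0.699 (replicates 1 and 4) and 0.845 (replicates 2 and 3). Pairs with neighbouring experiment numbers were thus the most alike in rank, whereas by shared bases replicates 1 and 2 were not. A replicate region that spans several combined regions lends its score to each of them. From 1182580 to 1185262 the values were 0.846, 0.986, 1.41 and 1.66 in replicates 1 to 4, the last 2 from regions that also span the neighbour. How far this bears on rho was not tested.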

How the data were processed

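HP1a ChIP-seq was analysed from 5 deposited region lists, 1 for each of 4 ChIP samples and 1 for the series as a whole. The deposited score of each region is the authors' own value, whose unit is not known here. The region caller, threshold and normalization were not given in the sources used. Bowtie 0.12.7 is named in the submitters' processing notes. Coordinates are on FlyBase release 5, per the file headers. The input samples entered only through the authors' lists, whose labels name each input for its ChIP. Intervals were merged and intersected by base (minimum overlap 1 bp) with NumPy 2.4.6 and SciPy 1.17.1 under Python 3.11.15, and Matplotlib 3.10.9 drew the figures. The interval code was tested on simulated lists. Percentiles use all regions of a list. Comparisons used log2 ratios or differences per replicate with exact two-sided sign-flip tests, adjusted by Benjamini-Hochberg over 10 comparisons. Another 5 were chosen after seeing the data. Members and lists were chosen with earlier results of these data known. Regions named are the 5 widest, the 5 highest-scoring and those in no replicate, the 5 of at least 5 kb with the largest range, the longest shared and empty stretches, the 3 highest and 3 lowest windows, and, from the 3 highest-scoring and 3 widest regions of each replicate, the first of each. Regions with matching edges were chosen after their values were seen. Alternatives tried were keeping the 50% of regions with the higher scores, merging within 1 kb, other window, end and stretch lengths, cover of at least 50%, and leaving out each replicate. Genes and sequences under the regions were not analysed here, since the gene table is on release 6. Wilson intervals are at 95%.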

Additional observations from a re-analysis of the deposited data

Results flagged for a closer look

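Among 45 values of 4 replicates each, 4 had 1 replicate far from the other 3. Chance gives about 1 in 20, but the regions from 28028 and from 777238 were among the values because of their large range between replicates, so the count cannot be set against that rate. All 4 are shares of a combined-set region of chromosome 4 covered in replicate 1, and in each replicate 1 was the lowest. From 48685 to 78810 it covered 59.6%, while replicates 2, 3 and 4 covered 97.3, 92.0 and 95.1%. From 28028 to 33555 it covered 41.3%, against 97.4, 99.4 and 94.8% in the others. From 777238 to 789300 it covered 48.9%, against 94.6, 100 and 100%. From 156749 to 167802 it covered 93.1%, against 99.5, 100 and 100%.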

How the results depend on the processing

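Of 115 values recomputed under another setting, 101 kept their direction or, for counts and shares without a test, roughly their size. Another 8 counts or shares moved and 6 values reversed. No tested value could change its side of the 0.05 threshold. The smallest p that the exact sign-flip test allows is 0.125 with 4 replicates and 0.25 with 3. Of the 101, 22 lay over 1.5 times from the reported value, among them comparisons with the 3L window. With only the higher-scoring 50% of each list, the median width on chromosome 4 was above that of 3LHet (log2 ratio 0.36, against -0.20) and of the 3L window (0.18, against -0.17), and its median percentile was above that of 3LHet by 9.63 (against -8.46) and of the 3L window by 16.6 (against -5.83). Merging regions within 1 kb turned the width ratio to the 3L window to 0.053. Without the outer 100 kb, chosen after seeing the data, the ratio of the left to the right side turned to 0.015 (against -0.04). With the ends kept, that ratio was -0.18 for the higher-scoring 50% and -0.019 without replicate 3. The gap ratio to the 3L window was 0.31 with the higher-scoring 50% and 0.18 after merging, against 0.11. Combined regions found in all 4 replicates numbered 34 with the higher-scoring 50% and 38 after merging, against 60. The combined set was itself filtered or merged in these settings, so both counts are out of fewer regions. They therefore do not measure a change in agreement. With a minimum of 10 kb the empty stretches numbered 14 and the shared ones 22, and with 2 kb they numbered 36 and 71. Bases in all replicates came to 34.5% with the higher-scoring 50%, and to between 44.3 and 51.7% without 1 replicate, the highest without replicate 1. The cause was not tested. No paired analysis was possible because the lists used here are of ChIP samples alone, so there is no second group of samples to pair with them by number. Parts of the genome were compared within each replicate. The depth behind the lists is unknown.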

Other observations

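Some HP1a regions had nearly the same borders in every replicate. Of the combined regions, 18 met exactly 1 region in each replicate that reached no other combined region, with a median range of 365 bp between left edges and 596 bp between right edges. In 7 both edges agreed within 500 bp and in 3 within 200 bp. These 3 were narrow: 521248 to 523435 (ranges 105 and 42 bp), 827428 to 829485 (73 and 72 bp) and 408532 to 410620 (55 and 190 bp). The 7472 bp region from 82773 to 90244 came close, with ranges of 206 and 98 bp. The choice of the 18 already left out split and merged regions, which favours matching borders. The same counts were not made outside chromosome 4, so they cannot be called particular to it.

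Wide and narrow regions of chromosome 4 lay further apart in score than those of pericentric sequence, in 4 comparisons chosen after seeing the data. The fifth so chosen set the ends of chromosome 4 against its interior. Regions of 10 kb or more had median percentiles of 80.1, 88.1, 80.5 and 82.6 on chromosome 4, against 73.0, 72.0, 76.0 and 72.1 in the 3L window and 71.9, 75.6, 78.8 and 76.4 in 3LHet. The differences were 9.53 ± 5.03 and 7.14 ± 4.50 percentile points (SD, n = 4), higher in 4 of 4 replicates. Regions under 2 kb had 13.2, 16.9, 13.8 and 13.5 on chromosome 4, against 16.2, 17.3, 17.3 and 27.7 in the 3L window and 24.3, 22.1, 34.9 and 57.4 in 3LHet. These differed by -5.29 ± 6.08 and -20.3 ± 17.0, lower in 4 of 4. Without replicate 4 they came to -2.33 and -12.5. Regions of the chromosome's ends had medians of 65.4, 78.6, 70.5 and 82.3, against 55.0, 49.0, 36.8 and 41.8 for the interior, a difference of 28.5 ± 12.9 in the same direction in 4 of 4. Each of the 5 gave p = 0.125 by exact two-sided sign-flip test, the smallest possible with 4 replicates, and 0.125 after adjustment over the 5.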
